A study of Homo sapiens and Mus musculus with 10 samples.

Results

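Transcripts of 10 chemokine and interleukin genes were followed in A375 cells, an established human melanoma line, with and without the peptide LL-37. The genes were CXCL1, CXCL2, CXCL3, CXCL8, IL1A, IL1B, IL24, IL11, LIF and CCL2, all found by symbol among 63140 gene rows. They had been chosen on measured LL-37 and Ctrl values of these same libraries, so that their levels and differences are given as a description, with no test. LL-37 is a host defence peptide, the active end of human cathelicidin, which epithelial cells and neutrophils secrete. The 3 Ctrl cultures were left untreated, and the 3 LL-37 cultures received the peptide at 80 µg/mL, both for 24 h. The study describes them as biological triplicates of 1 melanoma line at 1 dose and 1 time, with no vehicle or control peptide named. The protocol text calls the starting material keratinocytes, while the labels name A375. The comparison asked how melanoma cells respond to LL-37.

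Chemokines are small secreted proteins that steer white blood cells along concentration gradients by binding G protein-coupled receptors. CXCL1, CXCL2, CXCL3 and CXCL8 attract neutrophils through CXCR1 and CXCR2, and melanoma cells are a classical source of CXCL1 and CXCL8. The interleukin-1 cytokines start inflammation through a receptor that signals to the transcription factors NF-kB and AP-1, and the neutrophil chemokine genes are well-known targets of both. IL-11 and LIF belong to the IL-6 family, which signals through the shared subunit gp130 and STAT3, and IL-24 belongs to the IL-10 family.

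All values were given as TPM, transcript abundance scaled by transcript length and by library total, from which sequencing depth cannot be read. LL-37 replicate 3 stood apart. It correlated with the other 5 libraries at 0.949 to 0.963, whereas these correlated with each other at 0.985 to 0.992. Genes reaching 1 TPM numbered 12991 in this library and 14304 to 14555 in the rest. It also pulled the median log2 change of all genes to -0.20, a median that was 0.00 without it. Differences are therefore given with and without this library. Across 14399 tested genes 0 passed a Benjamini-Hochberg adjusted p of 0.05 in limma, where the smallest adjusted p was 0.197. An unadjusted p under 0.05 was reached by 363. Without LL-37 replicate 3, 17 genes passed, 7 higher and 10 lower.

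All 10 cytokine genes passed the filter on low values, at least 1 TPM in at least 3 libraries. Their mean was higher with LL-37 for every one of the 10, with log2 changes of 0.03 to 0.75 and a median of 0.54. Without LL-37 replicate 3 the changes were 0.19 to 0.88, with a median of 0.52. None of the 10 was called higher with all libraries, where the share of all tested genes called higher was 0%. IL24 alone was called without LL-37 replicate 3, where that share was 0.0486%. All LL-37 libraries lay above all Ctrl libraries for 7 of the 10, which held for 2.13% of tested genes. Without LL-37 replicate 3 this was 10 of 10, against 12.3% of tested genes. The choice of the genes used this contrast, and nothing is read from these shares.

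**Figure D1:**
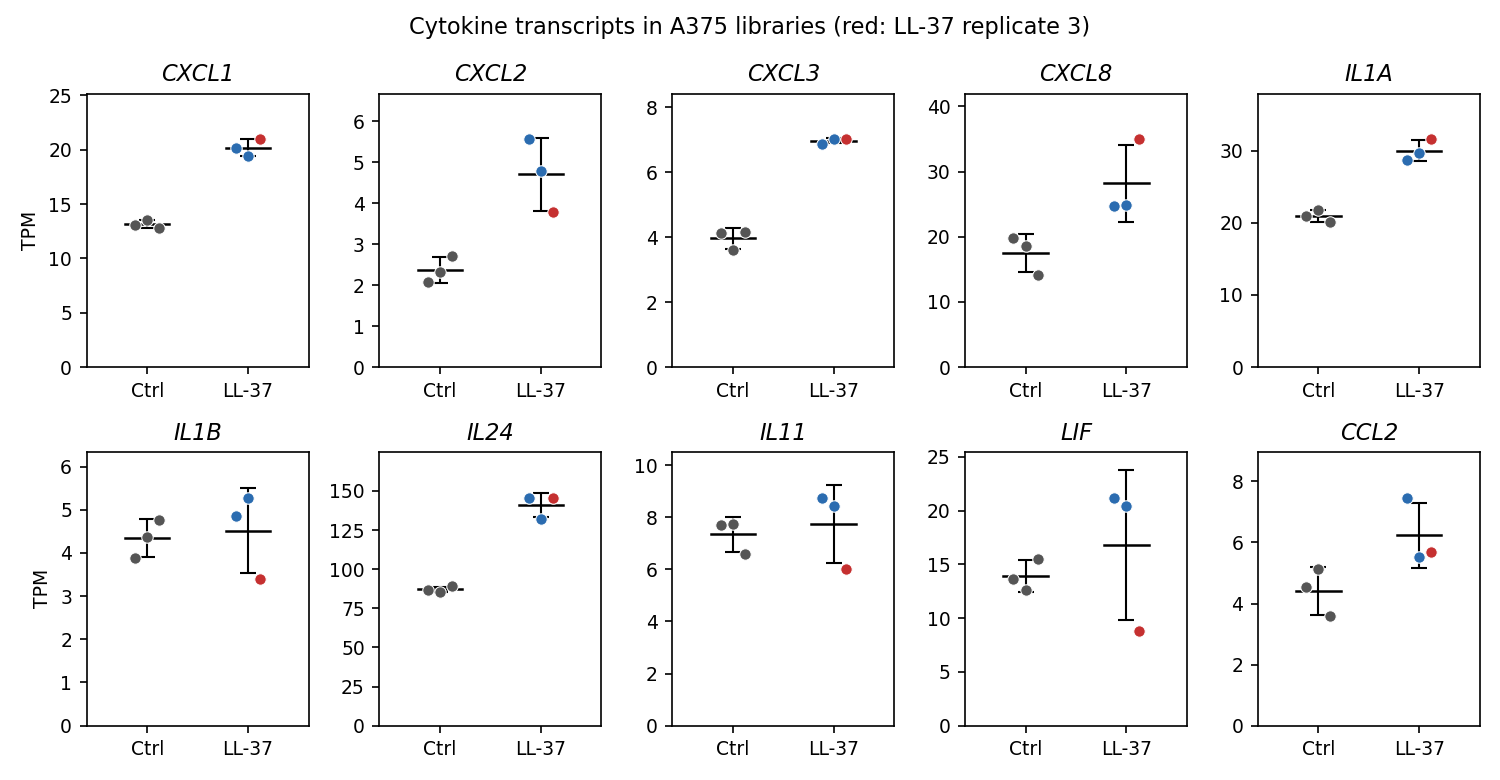
TPM of the 10 cytokine genes in each library, on linear axes from 0, with the mean (long bar) and SD (error bar) of the 3 Ctrl and 3 LL-37 libraries. LL-37 replicate 3 is red. It lies with the other LL-37 libraries for CXCL1, CXCL3, IL1A and IL24, above them for CXCL8, and below every Ctrl library for IL1B, IL11 and LIF.

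CXCL1, CXCL2 and CXCL3 encode the GRO chemokines, which draw neutrophils through CXCR2. CXCL1 (ENSG00000163739, chr4:73869393-73871242, plus strand, GRCh38) was at 13.08, 13.53 and 12.82 TPM in the Ctrl libraries and at 20.11, 19.42 and 20.97 TPM with LL-37. The lowest LL-37 library was well above the highest Ctrl library, and replicate 3 was no exception. The group means were 13.1 ± 0.359 and 20.2 ± 0.777 TPM (SD, n = 3 each), a ratio of 1.53. On the log2(TPM + 1) scale, which understates changes of low genes, the change was 0.58 ± 0.14 (SE), and it was 0.55 ± 0.09 without LL-37 replicate 3.

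CXCL2 (ENSG00000081041, chr4:74097035-74099293, minus strand) had the lowest mean level of the 10 genes and the largest ratio between groups. It was at 2.07, 2.32 and 2.70 TPM in Ctrl and at 5.56, 4.78 and 3.78 TPM with LL-37. The groups were apart, with replicate 3 the lowest of the LL-37 libraries. The means were 2.36 ± 0.317 and 4.71 ± 0.892 TPM, a ratio of 1.99, and the log2 change was 0.75 ± 0.19 (SE), or 0.88 ± 0.14 without LL-37 replicate 3.

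CXCL3 (ENSG00000163734, chr4:74036589-74038807, minus strand) was at 4.12, 3.60 and 4.17 TPM in Ctrl and at 6.88, 7.01 and 7.02 TPM with LL-37. Its LL-37 libraries were almost level, and all were above Ctrl. The means were 3.96 ± 0.316 and 6.97 ± 0.0781 TPM, with a log2 change of 0.69 ± 0.16 (SE) that was 0.68 ± 0.12 without LL-37 replicate 3.

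Because the longest coding transcripts of CXCL1 and CXCL2 are 90.5% identical, and those of CXCL3 81.7% and 83.3% identical to them, reads may have been divided among the GRO genes. Between 0.573% and 5.73% of the 50-base stretches of one transcript occurred in another, and no 100-base stretch did. Since TPM are divided by transcript length, their sum over the GRO genes also depends on that division. The sum was 19.27, 19.45 and 19.69 TPM in Ctrl and 32.55, 31.21 and 31.77 TPM with LL-37, so the spread within each group was far smaller than the gap between them. CXCL1 made up 65.1% to 69.6% of the sum in Ctrl and 61.8% to 66.0% with LL-37. CXCL2 made up 10.7% to 13.7% and 11.9% to 17.1%, ranges that overlap.

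CXCL8 (ENSG00000169429, chr4:73740506-73743716, plus strand) encodes interleukin-8, which binds both CXCR1 and CXCR2. It was at 19.84, 18.54 and 14.15 TPM in Ctrl and at 24.72, 24.85 and 34.97 TPM with LL-37. The groups were apart, but replicate 3 was 1.41 times the mean of LL-37 replicates 1 and 2. The means were 17.5 ± 2.98 and 28.2 ± 5.88 TPM. The log2 change was 0.65 ± 0.21 (SE), and 0.49 ± 0.14 without LL-37 replicate 3. Its transcript shared no 50-base stretch with any GRO gene, and identity with them was 60.6% to 63.0%.

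These 4 genes lie in 1 cluster of chromosome 4. The other chemokine genes of the cluster were nearly silent. CXCL6 reached at most 0.05 TPM, and PF4V1, PF4, PPBP and CXCL5 were listed at 0 in every library. These neighbours were named by position.

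The promoter stretches of the GRO genes and CXCL8 are printed because they carry the feature that these genes share. They come from RefSeq (GRCh38.p14), which had 9 windows of 250 bases before to 50 after a transcription start for 8 of the 10 genes, IL1A having 2 starts. LIF and CCL2 had no entry. Capitals mark GGAATTTCC, an NF-kB binding core (kB core), and each sequence is read 5′ to 3′ on the gene's own strand.
CXCL1, chr4:73869255-73869368, plus strand: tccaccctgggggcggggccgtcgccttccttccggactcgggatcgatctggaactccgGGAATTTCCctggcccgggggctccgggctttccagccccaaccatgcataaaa
CXCL2, chr4:74099219-74099332, minus strand: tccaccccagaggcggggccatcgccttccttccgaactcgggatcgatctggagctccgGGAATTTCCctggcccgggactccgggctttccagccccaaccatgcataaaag
CXCL3, chr4:74038714-74038827, minus strand: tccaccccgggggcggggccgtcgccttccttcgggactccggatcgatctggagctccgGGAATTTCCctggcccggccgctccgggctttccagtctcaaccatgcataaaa
CXCL8, chr4:73740418-73740531, plus strand: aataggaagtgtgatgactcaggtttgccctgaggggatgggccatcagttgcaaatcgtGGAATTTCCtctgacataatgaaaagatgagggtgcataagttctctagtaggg

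The first base of the kB core lay 78 bases before the start of CXCL1 and CXCL3, 77 before that of CXCL2 and 91 before that of CXCL8. Part of the printed stretches of CXCL2, CXCL3 and CXCL8 falls inside the gene bounds of GENCODE 29, which begin farther upstream than the RefSeq starts. The kB cores of CXCL2 and CXCL3 lie in that part, and the core of CXCL8 lies outside it. Around the kB core, the printed stretch of CXCL1 matched that of CXCL2 at 106 of 113 aligned bases (93.8%) and that of CXCL3 at 93.0%. Matches of the GRO stretches with CXCL8 were 55.1% to 68.5%, over only 73 to 78 aligned bases. The 9-base core, searched on both strands, was chosen after the sequences had been read. It occurred in 162 of 35116 promoter windows (0.461%) and in 4 of the 9 windows of the cytokine genes. The 3 GRO windows descend from a common ancestor sequence and are not independent. A match is a string of letters, and no binding was measured.

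A second motif, the AP-1 site TGANTCA, was also searched on both strands. It occurred in 2707 of 35116 windows (7.71%) and in 4 of the 9, among them both windows of IL1A, which overlap. It shares no base with the kB core in the CXCL8 window, where it stands in lower case near the left end of the printed stretch, 137 bases before the start. Capitals mark the site in the stretches below.
IL1A, chr2:112784489-112784515, minus strand: cgaagaagacTGACTCAggcttaagct
IL1A, chr2:112784439-112784465, minus strand: cattggcgttTGAGTCAgcaaaggtat
IL11, chr19:55370543-55370569, minus strand: gcagggagggTGAGTCAggatgtgtca

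The IL1A sites lay 105 and 55 bases before the downstream start. From the upstream start the first lay 12 bases before it and the second 39 bases after it, and both fall inside the GENCODE 29 gene bounds. The IL11 site lay 96 bases before its start. The windows of IL1B and IL24 held neither string, which says only that these letters were not found there.

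**Figure D2:**
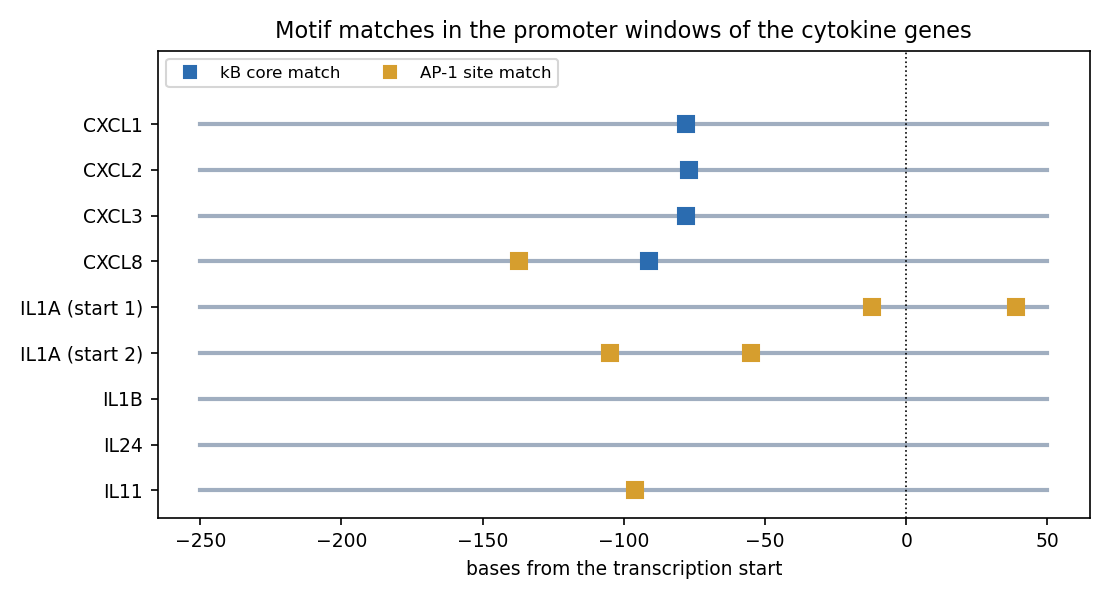
Positions of the kB core (blue) and AP-1 site (yellow) matches in the 9 RefSeq windows, in bases from the transcription start (dotted line). The kB core stands at -78, -77 and -78 in CXCL1, CXCL2 and CXCL3 and at -91 in CXCL8. IL1B and IL24 have no match.

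Of the interleukin-1 pair, IL1A encodes IL-1α, an alarmin active in its uncut form, and IL1B encodes IL-1β, which needs cutting by caspase-1. IL1A (ENSG00000115008, chr2:112773915-112784590, minus strand) was at 20.90, 21.71 and 20.09 TPM in Ctrl and at 28.67, 29.67 and 31.59 TPM with LL-37. The groups were apart and replicate 3 was the highest. The means were 20.9 ± 0.810 and 30.0 ± 1.48 TPM, and the log2 change was 0.50 ± 0.13 (SE), or 0.46 ± 0.08 without LL-37 replicate 3.

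IL1B (ENSG00000125538, chr2:112829751-112836903, minus strand), the neighbouring gene, was at 3.89, 4.37 and 4.77 TPM in Ctrl and at 4.86, 5.28 and 3.40 TPM with LL-37. The groups overlapped because replicate 3 lay below every Ctrl library. The log2 change was 0.03 ± 0.21 (SE), and 0.19 ± 0.13 without LL-37 replicate 3, and it changed sign when any of 3 other single libraries was left out (-0.07 at the lowest). Thus no direction is given for IL1B. IL37, from the same chromosome 2 family, was at 0.75 to 2.59 TPM, and IL1RN, which encodes the receptor antagonist, reached at most 0.06 TPM.

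IL24 encodes a secreted IL-10 family cytokine first found as a melanoma differentiation-associated gene. It was the most abundant of the 10 transcripts (ENSG00000162892, chr1:206897443-206904139, plus strand), above 90.3% of all tested genes in Ctrl. It was at 86.93, 85.55 and 88.96 TPM in Ctrl and at 145.49, 132.28 and 145.76 TPM with LL-37. The Ctrl libraries were tight, the LL-37 libraries were all far above them, and replicate 3 matched replicate 1. The means were 87.1 ± 1.72 and 141 ± 7.71 TPM, a ratio of 1.62. The log2 change was 0.69 ± 0.10 (SE), or 0.66 ± 0.07 without LL-37 replicate 3, the smallest SE of the 10 genes in both fits. Its chromosome 1 neighbours of the same family were low: IL19 was at 1.01 to 2.17 TPM, IL10 at 0.45 to 0.74 TPM and IL20 at no more than 0.07 TPM.

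IL11 and LIF encode gp130 cytokines. IL11 (ENSG00000095752, chr19:55364389-55370463, minus strand) was at 7.70, 7.74 and 6.57 TPM in Ctrl and at 8.75, 8.44 and 6.0 TPM with LL-37. LL-37 replicates 1 and 2 were above all Ctrl libraries and replicate 3 was below all of them. The log2 change was 0.05 ± 0.20 (SE), 0.21 ± 0.11 without LL-37 replicate 3, and as low as -0.03 when another single library was left out, so that no direction is given.

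LIF, a factor that keeps stem cells undifferentiated and acts on many tissues (ENSG00000128342, chr22:30240447-30246851, minus strand), showed the widest split. It was at 13.61, 12.60 and 15.53 TPM in Ctrl and at 21.22, 20.43 and 8.80 TPM with LL-37. Replicates 1 and 2 exceeded every Ctrl library, while replicate 3 was 0.423 times their mean. The log2 change was 0.17 ± 0.34 (SE) from all libraries, and 0.55 ± 0.11 without LL-37 replicate 3. Leaving out LL-37 replicate 1 or 2 instead gave -0.04 or -0.01, so that the sign for LIF rests on single libraries. OSM, the gene of the related oncostatin M beside LIF, was listed at 0 throughout.

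CCL2 encodes the monocyte attractant MCP-1, which binds CCR2 (ENSG00000108691, chr17:34255218-34257203, plus strand). It was at 4.54, 5.13 and 3.58 TPM in Ctrl and at 7.47, 5.54 and 5.69 TPM with LL-37. The groups were apart, but the lowest LL-37 library, replicate 2, was close to Ctrl replicate 2. The means were 4.42 ± 0.782 and 6.23 ± 1.07 TPM, and the log2 change was 0.42 ± 0.21 (SE), or 0.47 ± 0.17 without LL-37 replicate 3. The neighbouring CCL7, CCL11, CCL8, CCL13 and CCL1 were listed at 0 in every library.

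**Figure D3:**
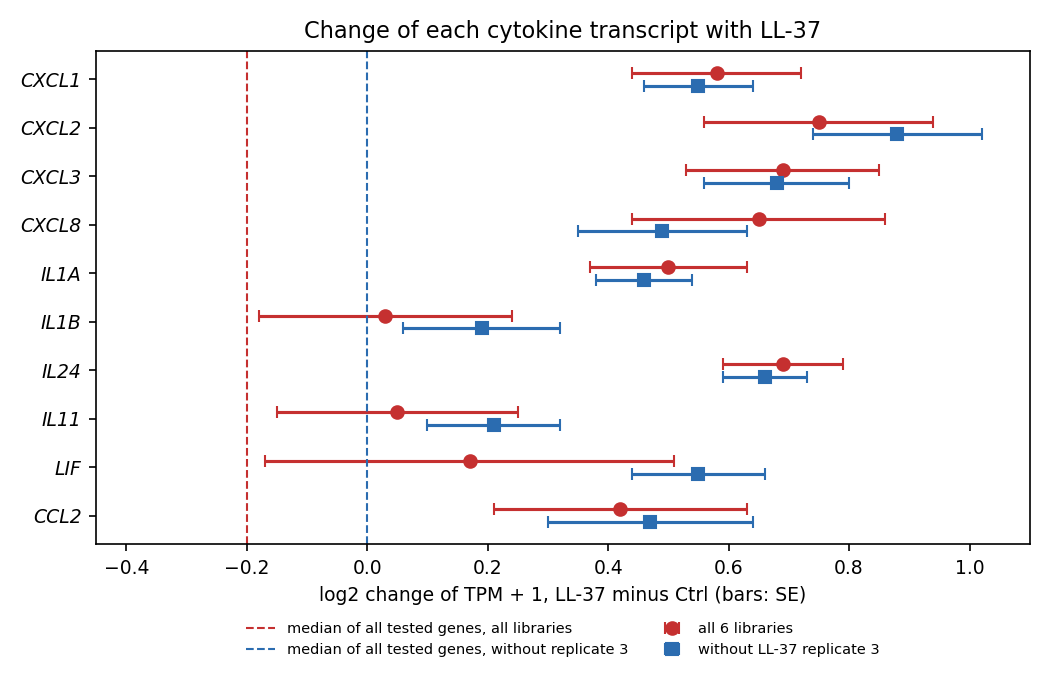
Log2 change of TPM + 1 with LL-37 (LL-37 minus Ctrl, bars are SE) for each gene, with all 6 libraries (red circles) and without LL-37 replicate 3 (blue squares). Dashed lines mark the median of all tested genes, -0.20 and 0.00. The 2 estimates lie close together for CXCL1, CXCL3, IL1A, IL24 and CCL2, and farthest apart for LIF (0.17 and 0.55).

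TPM allow levels of different genes to be compared. In Ctrl, IL24 stood alone at the top, followed by IL1A, whose lowest library was just above the highest of CXCL8. CXCL8 lay above CXCL1 in every Ctrl library, and LIF, at 12.60 to 15.53 TPM, overlapped both. IL11 followed. CCL2, IL1B and CXCL3 overlapped between 3.58 and 5.13 TPM, above CXCL2. With LL-37, IL24 remained on top, CXCL8 and IL1A overlapped, CXCL1 and LIF overlapped, and IL11, CXCL3 and CCL2 overlapped between 5.54 and 8.75 TPM. CXCL2 now overlapped IL1B and CCL2.

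The profiles of the 10 genes over the 6 libraries were compared by the root mean square difference of log2((TPM + 1)/(Ctrl mean + 1)). CXCL3 and IL24 were closest, at 0.06, then CXCL1 and IL1A at 0.07, and CXCL1 and IL24 at 0.09. IL1B was closest to IL11 (0.14) and LIF (0.26), the genes in which replicate 3 was low. CXCL8 and LIF were farthest apart, at 0.68.

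Transcript length moved with the deviation of LL-37 replicate 3. The median log2 difference between this library and the mean of LL-37 replicates 1 and 2 was -0.26 for genes under 500 nt, -0.06 for those of 500 to 1000 nt and -0.13 for those of 1000 to 2000 nt. It was -0.66 for 3000 to 4000 nt and -1.09 for 6000 nt or more. Between replicates 1 and 2 the same medians were -0.02 to 0.10. LIF has the longest transcript of the 10 genes, 3969 nt, and its difference was -1.15. This was below the median of its length class (-0.66) and its lower quartile (-1.01). IL11, at 2281 nt, differed by -0.45, close to the median of its length class (-0.41), and CCL2, at 996 nt, by -0.15 (class median -0.06). IL1B (1631 nt) and CXCL2 (1218 nt) differed by -0.46 and -0.37, and CXCL8 (1705 nt) by 0.48, in the class with the median -0.13. CXCL1, CXCL3 and IL24, of that same class, differed by 0.01 to 0.08, above its median. IL1A (2124 nt) differed by 0.11, also above its class median of -0.41. With the length trend removed from every library, an alternative chosen after the data were seen, the log2 change of LIF was 0.42 and that of IL11 0.17.

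**Figure D4:**
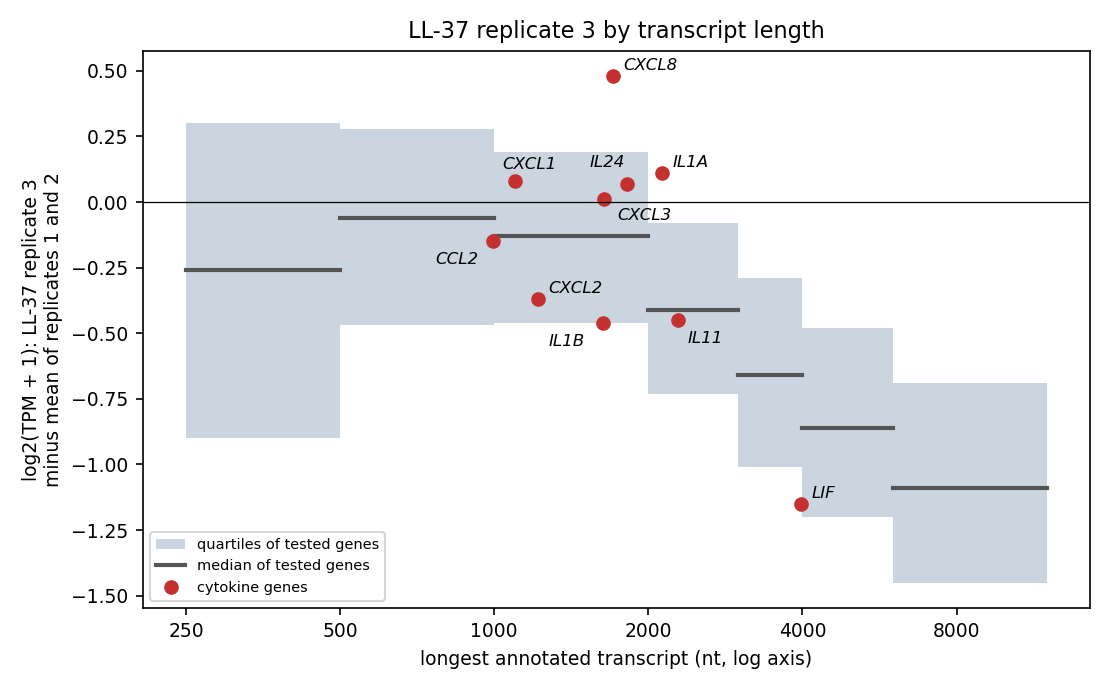
Difference in log2(TPM + 1) between LL-37 replicate 3 and the mean of LL-37 replicates 1 and 2, against the longest annotated transcript in nt (log axis). Grey bars are the medians and shaded boxes the quartiles of tested genes in 7 length classes, whose outer limits are open, and red points are the cytokine genes. The medians reach -1.09 for the longest class. LIF, the longest of the 10, lies at -1.15, and CXCL8 lies highest, at 0.48.

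Short-lived cytokine mRNAs often carry the pentamer ATTTA, the core of AU-rich elements that recruit mRNA decay factors. The longest coding transcript held 10 copies in CXCL2 and in CXCL8, 9 in IL11, 7 in CXCL3 and in LIF and 6 in IL1B. CXCL1 and IL1A held 5, IL24 held 4 and CCL2 held 1. The median over 19684 coding genes was 3, and longer transcripts hold more by length alone. At least as many copies as in CXCL2 and CXCL8 were held by 17.3% of these genes. The share was 36.2% for CXCL1 and IL1A, 42.5% for IL24 and 76.7% for CCL2, and the remaining members lay between 17.3% and 36.2%. Copies were counted anywhere in the transcript, and their use was not measured.

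Other secreted ligands were sparse. Of 36 other chemokine genes, 20 were listed at 0 in all libraries and 3 passed the filter, CXCL16, CCL28 and CCL17. CXCL16, a membrane-bound chemokine, was at 9.87 to 12.14 TPM in Ctrl and 4.90 to 12.38 TPM with LL-37, and CCL17 was at 0.30 to 2.17 and 1.05 to 2.12 TPM. CCL28, an epithelial chemokine, was at 9.99, 10.37 and 11.81 TPM in Ctrl and at 8.98, 9.23 and 8.37 TPM with LL-37, so that the groups were apart and lower, as for 10.3% of tested genes. Its log2 change was -0.25 ± 0.16 (SE). The median log2 change of the 3 was -0.25, and 0.00 without LL-37 replicate 3.

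Of 36 other interleukin and cytokine genes 13 passed the filter, with a median log2 change of 0.02 (0.14 without LL-37 replicate 3). IL32, which encodes a proinflammatory cytokine, was at 0.89, 1.36 and 1.40 TPM in Ctrl and at 3.74, 1.62 and 3.53 TPM with LL-37. IL37, which encodes an anti-inflammatory member of the IL-1 family, was at 1.30, 0.75 and 1.59 TPM and at 1.87, 2.59 and 1.81 TPM. The groups were apart and higher with LL-37 for these 2 of the 13, against 2.13% of tested genes. They were so for 6 of the 13 without LL-37 replicate 3, with IL19, IL16, IL17D and EBI3 added, against 12.3% of tested genes. CNTF was lower, at 1.37 to 1.50 and 0.40 to 1.30 TPM. It was the 1 of the 13 apart and lower, against 10.3% of tested genes. Without LL-37 replicate 3, 2 of the 13 were apart and lower, with IL7 added, against 12.9% of tested genes. With all libraries the groups overlapped for IL18, IL19, IL7, IL12A, IL16, IL17D, IL23A, EBI3, CLCF1 and CSF1. Their log2 changes with all libraries lay between -0.42 (CSF1) and 0.31 (IL19 and IL23A). IL6 and TNF, 2 ligands usually listed beside IL1B and CXCL8, stayed at or below 0.08 and 0.04 TPM.

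Receptors for the 4 neutrophil chemokines and CCL2 were at or near 0, with CXCR1 and CCR2 listed at 0 in all libraries and CXCR2 at most 0.13 TPM. Of 19 chemokine receptor genes only CCR10, a receptor of CCL28, passed the filter. Of 11 receptor genes for the interleukins 6 passed, with a median log2 change of -0.44 (-0.14 without LL-37 replicate 3). IL1R1, the signalling IL-1 receptor, was at 0.09 to 0.43 TPM, while its partner IL1RAP was at 6.86 to 7.78 TPM in Ctrl and 2.93 to 6.54 TPM with LL-37. IL20RA, a subunit of an IL-24 receptor, was listed at 0. The other IL-24 receptor subunits of the list did not pass the filter. IL20RB was at 0.91 to 1.99 TPM in Ctrl and 0.65 to 0.82 TPM with LL-37, and IL22RA1 was at 0.35 to 0.84 TPM over all libraries. IL6ST, which encodes gp130, was at 31.35, 26.12 and 29.56 TPM in Ctrl and at 30.30, 27.70 and 12.67 TPM with LL-37, so that only replicate 3 was low. The LIF receptor gene LIFR was at 4.80 to 5.63 TPM in Ctrl and 1.38 to 4.34 TPM with LL-37. The oncostatin M receptor gene OSMR, the most abundant of the list, was at 39.58, 36.31 and 42.96 TPM and at 32.22, 30.27 and 11.77 TPM, apart and lower also without LL-37 replicate 3. Its log2 change was -0.78 ± 0.37 (SE) from all libraries, and -0.33 ± 0.09 without that one. With IL1RAP, LIFR and OSMR, 3 of the 6 measured receptors were apart and lower with the full set, against 10.3% of tested genes. The same 3 were so when LL-37 replicate 3 was left out, where 12.9% of tested genes were. The receptors named here other than OSMR, IL6ST and CCR10 were picked out after their values were seen.

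Pathway genes around the cytokines were described from lists of IL-1 receptor signalling, NF-kB, AP-1 and C/EBP factors, AU-rich element decay, IL-1 maturation and gp130 signalling. Over the ligand, receptor, pathway and marker lists together, 114 genes other than the 10 were tested, and 0 passed in limma with all libraries (smallest adjusted p = 0.739). At an unadjusted p under 0.05 there were 4, against 2.52% of all tested genes. Without LL-37 replicate 3, 0 passed (smallest adjusted p = 0.0749) and 27 had an unadjusted p under 0.05, as had 1298 of all 14399 tested genes (9.01%).

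All 13 NF-kB subunit and feedback genes were measured, with a median log2 change of -0.01, and 0.21 without LL-37 replicate 3. NFKB1, which encodes the p105 and p50 subunit, was at 55.70, 54.26 and 55.10 TPM in Ctrl and at 82.40, 71.73 and 60.28 TPM with LL-37. BIRC3, an NF-kB-induced apoptosis inhibitor gene named after its values were seen, was at 2.08 to 2.68 and 3.05 to 5.41 TPM. These 2 of the 13 were apart and higher, against 2.13% of tested genes. NFKB2 was at 53.62, 46.01 and 45.59 TPM and at 71.94, 74.91 and 36.91 TPM, and was apart only without LL-37 replicate 3. In that count 9 of the 13 were apart and higher, against the 12.3% of all tested genes given above. These lists were drawn up with such results known, and the counts are descriptions. Among 10 AP-1 and C/EBP genes ATF3 was the 1 apart and higher with all libraries (2.13% of tested genes), at 4.96 to 6.60 and 7.21 to 13.05 TPM. There were 4 of the 10 without LL-37 replicate 3 (12.3% of tested genes), ATF3, FOSB, FOSL1 and CEBPB. FOSL1, an abundant AP-1 subunit gene, was at 80.78 to 90.37 TPM in Ctrl and at 126.13, 104.30 and 55.74 TPM with LL-37, and JUND was at 71.39 to 95.86 and 45.62 to 89.91 TPM.

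Of 16 IL-1 receptor signalling genes 15 were measured, with a median log2 change of -0.28 (-0.01 without LL-37 replicate 3). The kinase gene IRAK1 was at 249.68 to 274.35 TPM in Ctrl and at 271.22, 253.68 and 111.46 TPM with LL-37. The kinase gene MAPKAPK2, whose product stabilises AU-rich cytokine mRNAs, was at 52.28 to 55.35 TPM and at 62.07, 57.71 and 24.09 TPM. The 13 AU-rich element decay genes had a median of -0.31 (0.02 without LL-37 replicate 3). Their most abundant members were HNRNPD, at 186.03 to 226.75 and 74.73 to 201.90 TPM, and KHSRP, at 105.84 to 125.67 and 32.07 to 121.66 TPM. In all 4 genes LL-37 replicate 3 was the lowest of the 6 libraries.

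Of 15 genes for IL-1 maturation and release 11 were measured, with a median of -0.17 (0.02 without LL-37 replicate 3). S100A13, whose product accompanies IL-1α out of the cell, was at 700.23 to 765.21 TPM in Ctrl and at 726.95, 734.31 and 1266.75 TPM with LL-37, and CAPNS1, the small subunit of the calpains that cut pro-IL-1α, was at 436.22 to 546.84 and 422.77 to 456.68 TPM. The caspase-1 gene CASP1 was at 0.37 to 0.75 TPM, and the inflammasome adaptor gene PYCARD and CASP5 were listed at 0, all 3 named after their values were seen. Of 13 gp130 and STAT3 genes 12 were measured, with a median of -0.44 (-0.02 without LL-37 replicate 3). Among them, STAT3 and SOCS3 were apart and lower with and without LL-37 replicate 3. STAT3, the main gp130 target, was at 39.13, 37.73 and 43.47 TPM and at 33.51, 33.46 and 12.34 TPM. SOCS3, a feedback inhibitor that STAT3 induces, was at 7.33, 7.42 and 7.68 TPM and at 5.57, 5.44 and 3.36 TPM. Both were named after their values were seen. TYK2 (47.13 to 57.26 and 24.60 to 57.59 TPM) and PTPN11 (40.43 to 49.46 and 11.73 to 47.61 TPM) overlapped.

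**Figure D5:**
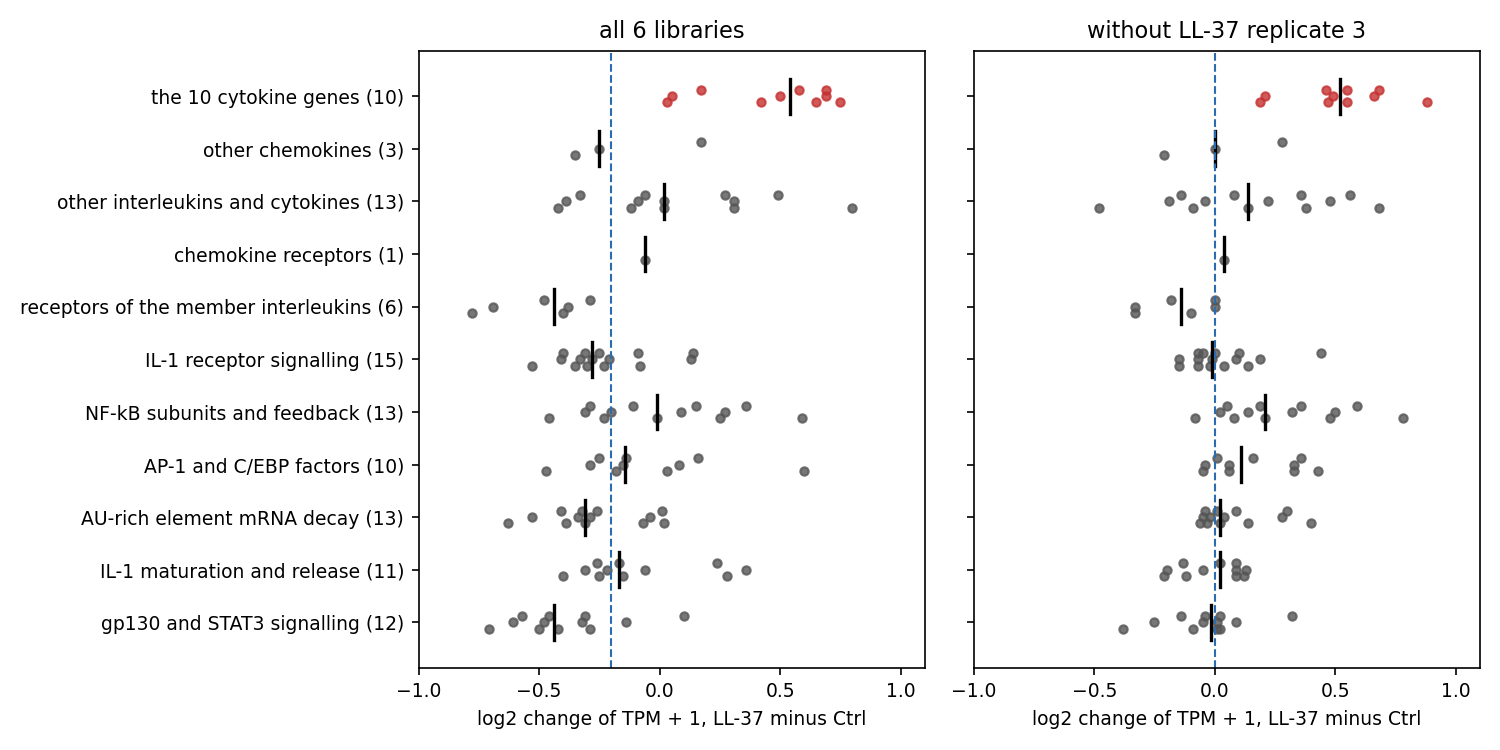
Log2 change of TPM + 1 with LL-37 for the 10 cytokine genes (red) and each measured gene of the ligand, receptor and pathway lists (grey), with the number measured in parentheses. Black ticks are list medians, and the dashed line is the median of all tested genes. With all libraries (left) the cytokine median was 0.54 and the gp130 list median -0.44. Without LL-37 replicate 3 (right) they were 0.52 and -0.02.

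For each cytokine gene the 2 genes with the most similar profile, among those of at least 5 TPM on average and with the 10 cytokine genes left out of the search, were found by the same distance. Outside the 10, CXCL1 was nearest to SQOR and TAGLN3 (0.10 each), CXCL2 to FDCSP (0.11) and IGFBP3 (0.13), and CXCL3 to IGFBP3 and SQOR (0.15 each). CXCL8 was nearest to TAFA2 (0.09) and ATF3 (0.12), genes in which replicate 3 was also the highest library, at 21.66 and 13.05 TPM. IL1A was nearest to RAMP1 (0.07) and SQOR (0.09), and IL24 to UBE2C and TAGLN3 (0.14 each). CCL2 was nearest to the pseudogene RPS26P19 (0.07), whose reads may belong to its parent gene, and to RAMP1 (0.13). IL1B was nearest to NPAS1 (0.03) and BBC3 (0.04), IL11 to ELMOD3 and KYNU (0.06 each), and LIF to SCARA5 (0.06) and MAP2K3 (0.09), with replicate 3 the lowest library in all 6.

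Markers of cell types were read beside these values. Of 11 melanoma line markers 6 were measured, among them VIM at 1223.03 to 2401.70 TPM, SOX10 at 146.99 to 387.25 TPM and MITF at 1.75 to 5.45 TPM. The lower limit of each of these ranges came from LL-37 replicate 3. The pigment genes MLANA and TYR reached at most 0.02 TPM, while PMEL was at 0.12 to 1.25 TPM and DCT at 0.19 to 0.74 TPM. MITF and the pigment genes were named after their values were seen. Of 12 keratinocyte markers 5 were measured, and KRT1, DSG3 and TP63, which mark keratinocytes, were listed at 0. KRT14 was at 1.15 to 1.98 TPM, KRT15 at 1.77 to 2.53 TPM and DSC3 at 0.92 to 2.35 TPM. These 6 keratinocyte markers were picked out after the values were known. The summed level of the list was 73.8 to 74.8 TPM in Ctrl and 61.8 to 66.8 TPM with LL-37, mostly PERP and KRT10, and their part in the cytokine values was not tested. Of 13 leukocyte markers only CD68 and LYZ were measured, with sums of 36.1 to 43.1 and 22.8 to 41.7 TPM, and PTPRC reached at most 0.07 TPM. Of 11 fibroblast and endothelial markers 4 were measured, with sums of 9.29 to 10.6 and 4.35 to 11.2 TPM, PDGFRB and KDR being the most abundant. The lowest leukocyte sum (22.8 TPM) and the lowest fibroblast and endothelial sum (4.35 TPM) were both from LL-37 replicate 3. In bulk RNA, fewer cells of a type and less RNA per cell cannot be told apart.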

How the data were processed

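RNA of 3 Ctrl and 3 LL-37 cultures was made into stranded mRNA libraries, per the labels' protocols. The authors deposited a table of TPM per gene. The human build GRCh38 is named in the submitters' processing notes, and the quantification tool is not given in the sources used here. As TPM are scaled by length and library total, abundant genes shift the rest, and no counting error can be given.

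A gene name table matched 62541 of 63140 identifiers. Genes that reached 1 TPM in 3 or more of the 6 libraries were fitted as log2(TPM + 1) in limma 3.58.1 (R 4.3.3, intensity trend, two-sided, Benjamini-Hochberg adjusted p under 0.05 over all 14399 genes). The fit was tested on simulated data. Lengths (longest transcript, 96.4% of tested genes) and positions came from GENCODE 29, and sequences were aligned with Biopython 1.88.

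The cytokine genes and the lists were chosen with earlier results of these data known. By a naming rule, listed genes were named if they passed, otherwise the 2 most abundant of a list. The rule also covered all measured ligands and the 2 nearest profiles of each cytokine gene. Other listed genes in the text were named outside this rule, by position or after their values were seen. FOSB, CEBPB, IL6, TNF and PTPRC were among those named after their values were seen. Alternatives were other pseudocounts, filters and scalings, no intensity trend, a replicate block, each library left out and, chosen after seeing the data, removal of length trends. The mouse libraries were not analysed here. A further listed gene is not reported here.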

Additional observations from a re-analysis of the deposited data

How the results depend on the processing

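The count of 0 genes past the threshold became 17 without LL-37 replicate 3. Without it, the count was 9 under median-of-ratios scaling and 9 with length trends removed. It ranged from 0 to 17 over single libraries left out. It was also 0 with the replicate block, a paired fit by replicate number. Deviations from the group mean correlated at -0.20 to 0.09 between same-numbered Ctrl and LL-37 libraries. Between differently numbered ones they correlated at -0.21 to 0.25, so that the numbers were not taken to pair the cultures. The count of listed genes other than the 10 was 0 in every setting run. With a pseudocount of 5 TPM the log2 change was 0.47 for CXCL1, 0.40 for CXCL2, 0.42 for CXCL3, 0.43 for IL1A and 0.25 for CCL2, and with 0.1 TPM it was 0.96 for CXCL2 and 0.80 for CXCL3, as a larger pseudocount shrinks changes of low genes by construction. Median-of-ratios scaling, which moved the median of all genes from -0.20 to 0.01, gave 0.82 for CXCL1, 0.94 for CXCL2, 0.90 for CXCL3, 0.74 for IL1A, 0.94 for IL24, 0.23 for IL1B, 0.27 for IL11, 0.40 for LIF and 0.63 for CCL2. Quantile normalization gave 0.78 for CXCL1, 0.98 for CXCL2, 0.92 for CXCL3, 0.68 for IL1A, 0.27 for IL1B, 0.76 for IL24, 0.31 for IL11, 0.41 for LIF and 0.66 for CCL2. With length trends removed IL1A was at 0.60 and IL24 at 0.76. Leaving out single libraries gave -0.07 to 0.19 for IL1B, -0.03 to 0.21 for IL11 and -0.04 to 0.55 for LIF, changing sign, and 0.49 to 0.74 for CXCL8. Of the 39 listed genes named by the rule, 17 changed sign in at least 1 setting, 10 of them without LL-37 replicate 3. Listed genes named outside the rule, such as STAT3, SOCS3, LIFR, IL1RAP and BIRC3, were not in this count. The causes were not tested. Depth is unknown from TPM.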
